A study of Mus musculus with 10 samples.

Results

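The 10 genes described here encode the subunits, inhibitors and kinases of the transcription factor NF-kB: the subunit genes Rela, Relb, Nfkb1 and Nfkb2, the inhibitor genes Nfkbia, Nfkbib and Nfkbie, the feedback enzyme gene Tnfaip3, and the kinase genes Chuk and Ikbkb. They were chosen by symbol, and all 10 were found among the 54343 rows of the deposited expression table. Levels are in FPKM, that is, fragments per length of transcript and per mapped fragment, and all 10 were among the 11110 genes kept for testing because 5 or more of the 10 libraries reached 1 FPKM.

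RNA of 2 mouse tumour lines in culture was sequenced, with 5 libraries from MC38.T4 and 5 from parental MC38. MC38.T4 is 1 clone with low mesothelin expression. MC38 cells were transfected with the human mesothelin vector huMSLN.pcDNA3.1, sorted as a clone (MC38.huMSLN.34), grown as a tumour in C57/BL6 mice for about 25 days, kept in culture for 10 generations and cloned again, so that transfection, growth in a mouse and cloning cannot be told apart in the comparison. Parental MC38 came from a vendor and is labelled wild type. Both lines were grown in RPMI1640 with 10% fetal serum, and the labels name no stimulus of NF-kB. The treatment description calls MC38 a colon cancer line and the tissue label calls it melanoma. Of 11 colon epithelium markers none passed the filter, and 1 of 8 melanocyte markers did (Mitf). The markers of colon epithelium summed to between 1.17 and 1.5 FPKM in MC38.T4 and between 0.101 and 0.179 FPKM in MC38. Most of the sum in MC38.T4 was Cdh1 (0.908 to 1.1 FPKM, against 0.0084 to 0.0293 FPKM in MC38). Of 11 myeloid, 11 lymphocyte and 8 endothelial markers 2, 1 and none passed. The myeloid markers summed to between 5.01 and 6.94 FPKM in MC38.T4 and between 6.71 and 8.44 FPKM in MC38. The lymphocyte markers summed to between 2.62 and 3.46 FPKM in MC38.T4 and between 2.94 and 3.14 FPKM in MC38, and the endothelial markers to between 0.920 and 1.18 FPKM in MC38.T4 and between 0.441 and 0.565 FPKM in MC38. The part of such cells in the results below was not tested. Nothing in the labels ties the 5 libraries of a line to separate cultures. The p-values therefore reflect the spread among these samples alone, and that spread may be technical.

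NF-kB proteins are dimers of the Rel family that bind kappa-B sites in DNA. In resting cells IkB proteins hold them in the cytoplasm. Signals from TNF, IL-1 and Toll-like receptors activate the IkB kinase complex, which marks IkB for destruction and frees the dimers (the canonical route), while a slower route acts through the processing of the Nfkb2 product and frees dimers that contain RelB. Several genes of the pathway, Nfkbia and Tnfaip3 among them, are themselves induced by NF-kB and damp it. In tumour cells the pathway is known for the control of chemokines, adhesion molecules and survival genes.

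The sum of FPKM ranged over 442183 to 484460 among the libraries. The depth in reads is unknown, so values carry no counting interval. MC38.T4 replicate 4 stood out by Malat1 (124.8 FPKM, against 53.1 to 75.9 FPKM in the other libraries of both lines) and MC38 replicate 1 by the lowest sum of FPKM. Without these 2 libraries, an alternative added once the data had been seen, 2 rises and 7 falls were again called among the 10 genes. In that setting 9621 of all 11130 tested genes were called in either direction. A level of a bulk sample cannot tell fewer cells with a transcript from less RNA per cell.

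Of the 10 genes 2 rose in MC38.T4 (Nfkb1 and Nfkbie), 7 fell (Nfkbib, Tnfaip3, Rela, Relb, Nfkbia, Chuk and Ikbkb) and Nfkb2 did not pass the test. The mean FPKM of Nfkbib was 3.88-fold, that of Tnfaip3 3.47-fold and that of Rela 2.51-fold lower. Calls are from limma on log2(FPKM + 1) with Benjamini-Hochberg adjustment over all 11110 genes and a threshold of 0.05, and every log2 value below is MC38.T4 minus MC38 on that scale, which understates the change of low genes. The lines differed at 86.0% of all tested genes by this rule, 43.1% higher and 42.9% lower, so 9 of 10 called is close to the background. At least 2-fold falls on that scale (a log2 difference of 1 or more) were found for 3 of the 10 genes, against 7.14% of all tested genes, and at least 2-fold rises for none, against 10.0%. The libraries of the lines did not overlap for 9 of the 10 genes, against 77.4% of all tested genes. The median log2 difference of the 10 genes was -0.55, against 0.00 for all tested genes.

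**Figure D1:**
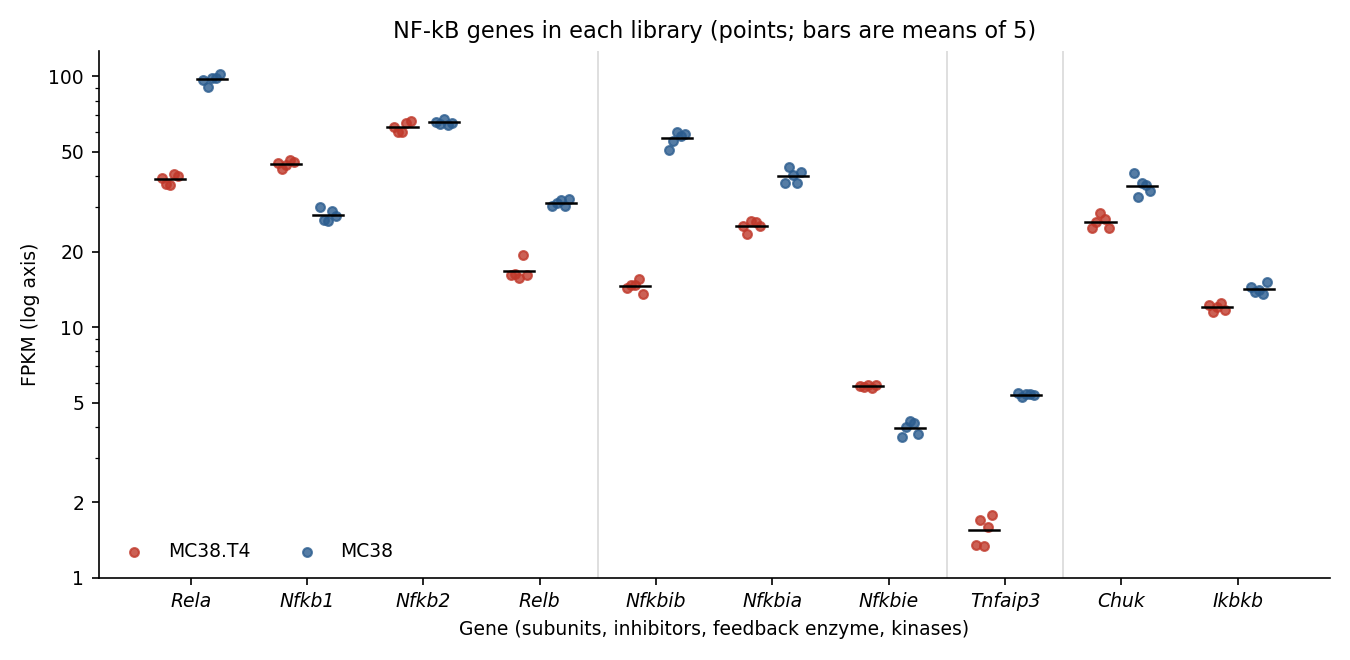
FPKM of the 10 NF-kB genes in each library on a log axis, with MC38.T4 in red left of MC38 in blue, points for single libraries and bars for the mean of 5 libraries. The lines overlap for Nfkb2 and for no other gene, and Nfkb1 and Nfkbie are the genes that are higher in MC38.T4.

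Rela encodes RelA, the subunit that carries the main activation domain of canonical NF-kB dimers. It stood at 39.2, 37.1, 36.7, 40.7 and 40.1 FPKM in MC38.T4 replicates 1 to 5, against 96.3, 90.5, 98.6, 98.3 and 101.8 FPKM in MC38 replicates 1 to 5. The highest MC38.T4 library lay far below the lowest MC38 library. The mean was 38.8 ± 1.8 FPKM in MC38.T4 and 97.1 ± 4.2 FPKM in MC38 (SD, n = 5 each). The log2 difference was -1.30 (SE 0.040, limma adjusted p = 1.53e-13). Of all tested genes 3.29% had a lower log2 difference.

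Nfkb1 encodes a precursor that is processed to the DNA-binding partner of RelA, and that partner has no activation domain of its own. It moved the other way, with 45.2, 42.8, 44.3, 46.5 and 45.4 FPKM in MC38.T4 replicates 1 to 5, against 30.0, 26.7, 26.5, 29.1 and 27.6 FPKM in MC38 replicates 1 to 5. All MC38.T4 libraries were above all MC38 libraries, and the mean was 1.6-fold higher (log2 difference 0.66, SE 0.040, limma adjusted p = 3.61e-10). Nfkb1 per Rela, a ratio within a library that does not depend on how the library was scaled, was 1.16 ± 0.03 in MC38.T4 and 0.288 ± 0.018 in MC38 (SD, n = 5 each). Nfkb1 thus stood above Rela in each MC38.T4 library and below it in each MC38 library.

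Relb encodes the subunit released by the slower route. It fell to 16.1, 16.3, 15.7, 19.3 and 16.1 FPKM in MC38.T4 replicates 1 to 5, against 30.5, 31.3, 32.2, 30.4 and 32.4 FPKM in MC38 replicates 1 to 5. Replicate 4 stood above the other MC38.T4 libraries and still far below MC38. The log2 difference was -0.87 (SE 0.049, limma adjusted p = 1.8e-10), and -0.92 without that library.

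Nfkb2 encodes the precursor that both holds back and, once processed, partners RelB. Its levels were 63.0, 60.0, 59.7, 65.0 and 66.3 FPKM in MC38.T4 replicates 1 to 5, against 65.9, 64.5, 67.4, 64.0 and 65.3 FPKM in MC38 replicates 1 to 5. The ranges overlapped. The log2 difference of -0.06 (95% interval -0.14 to 0.02) did not pass, with an adjusted p of 0.132 by limma and p = 0.119 by the exact permutation test. It passed as lower when the libraries were rescaled to TPM (log2 difference -0.11, adjusted p = 0.0213) or shifted to equal medians (-0.09, adjusted p = 0.0384), over a range of adjusted p from 0.0213 to 1.00 in 22 alternatives. Psd overlaps Nfkb2 on the opposite strand in the annotation and rose (25.3 FPKM in MC38.T4, 16.2 FPKM in MC38). The libraries keep strand, but no source used here says whether the counting did, so reads of the 2 genes may be shared. A further gene that overlaps Nfkb2, 4833438C02Rik, also rose (3.51 FPKM in MC38.T4, 1.5 FPKM in MC38). The same limit holds for Nfkb1, which overlaps Gm46827, and for Nfkbib, which overlaps Ccer2 on the opposite strand (0.00658 FPKM in MC38.T4, 0.0867 FPKM in MC38). Overlapping genes were named for their position.

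The makeup of the Rel-family transcripts therefore differed between the lines. Rela made up 23.8% ± 0.18 of the summed FPKM of the 4 subunit genes in MC38.T4 and 43.8% ± 0.92 in MC38 (SD, n = 5 each). Nfkb1 made up 27.5% ± 0.51 in MC38.T4 and 12.6% ± 0.68 in MC38. The share of Nfkb2 was 38.5% in MC38.T4 and 29.5% in MC38, and that of Relb 10.2% in MC38.T4 and 14.1% in MC38. The sum of the 4 genes was 163.1 ± 6.9 FPKM in MC38.T4 and 221.9 ± 5.4 FPKM in MC38. Shares and sums are descriptions and were not tested.

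The inhibitor genes did not move together: Nfkbib and Nfkbia fell and Nfkbie rose. They encode IkB beta, IkB alpha and IkB epsilon. IkB alpha is resynthesised quickly after a signal, whereas IkB beta and IkB epsilon are known for slower kinetics. Sequence before the transcription start was looked up for the 10 genes in RefSeq tables of mouse build GRCm38.p6, an older build than the GRCm39 of the submitters' processing notes, and 7 genes had an entry. Windows of 250 bases before to 50 bases after a start were searched on both strands for the kappa-B consensus, the 10-base element that NF-kB dimers bind. It was present in windows of Nfkbia, Nfkbie, Tnfaip3 and Nfkb2 and in none of Nfkbib, Rela and Chuk. Some genes have more windows than others, and the second window of Tnfaip3 held no match. Counted by single windows and not by gene, 8.46% of 32851 mouse promoter windows held the consensus. The windows of the inhibitor genes and of Tnfaip3 (its first listed start) are shown here because these genes went different ways, 5' to 3' on the gene's strand, with matches of the consensus in capitals.
Nfkbib (chr7:28766595-28766894, minus strand): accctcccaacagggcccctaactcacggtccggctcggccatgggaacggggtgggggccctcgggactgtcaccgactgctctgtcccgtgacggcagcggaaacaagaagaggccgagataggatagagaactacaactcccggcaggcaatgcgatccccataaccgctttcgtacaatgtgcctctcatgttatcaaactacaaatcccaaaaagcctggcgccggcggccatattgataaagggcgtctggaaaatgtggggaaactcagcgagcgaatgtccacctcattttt
Nfkbia (chr12:55492598-55492897, minus strand): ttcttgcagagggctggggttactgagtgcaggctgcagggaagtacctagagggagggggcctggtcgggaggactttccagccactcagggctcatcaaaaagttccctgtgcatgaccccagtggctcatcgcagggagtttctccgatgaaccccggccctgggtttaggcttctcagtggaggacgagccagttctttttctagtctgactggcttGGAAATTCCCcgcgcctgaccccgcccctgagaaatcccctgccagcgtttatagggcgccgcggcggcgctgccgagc
Nfkbie (chr17:45555450-45555749, plus strand): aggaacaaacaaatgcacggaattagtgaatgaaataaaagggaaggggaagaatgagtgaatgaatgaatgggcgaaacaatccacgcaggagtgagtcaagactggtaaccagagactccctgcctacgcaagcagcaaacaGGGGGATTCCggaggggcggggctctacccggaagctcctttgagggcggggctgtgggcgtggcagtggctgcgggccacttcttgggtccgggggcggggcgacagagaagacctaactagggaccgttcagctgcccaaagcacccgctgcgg
Tnfaip3 (chr10:19015361-19015660, minus strand): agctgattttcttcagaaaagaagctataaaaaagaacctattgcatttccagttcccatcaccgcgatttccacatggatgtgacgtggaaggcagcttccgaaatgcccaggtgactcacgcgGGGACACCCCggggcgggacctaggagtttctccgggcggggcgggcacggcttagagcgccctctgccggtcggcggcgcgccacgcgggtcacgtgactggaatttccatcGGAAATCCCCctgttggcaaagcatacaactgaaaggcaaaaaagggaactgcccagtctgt
The match of Nfkbia begins 29 bases before the start and that of Nfkbie 106 bases before it, while Tnfaip3 has matches that begin 125 and 12 bases before the start. In the Nfkb2 windows, which belong to 3 listed starts, the matches include GGGACTTTCC, 11 bases into the transcript of the second start. Genes with a match thus included falls (Nfkbia, Tnfaip3), a rise (Nfkbie) and a gene that did not pass (Nfkb2). A match is a string of letters and not a measured site.

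Nfkbib had the largest difference of the 10 genes. Its levels were 14.3, 14.7, 14.7, 15.5 and 13.6 FPKM in MC38.T4 replicates 1 to 5, against 50.7, 55.3, 59.8, 58.0 and 58.8 FPKM in MC38 replicates 1 to 5. The lines were far apart, and MC38 replicate 1 was the lowest of its line. The mean was 14.6 ± 0.69 FPKM in MC38.T4 and 56.5 ± 3.6 FPKM in MC38 (SD, n = 5 each), a log2 difference of -1.89 (SE 0.047, limma adjusted p = 1.75e-14). Of all tested genes 0.819% had a lower log2 difference. The tested genes with the profile most like it over the 10 libraries were Cited2, Afp and AI662270, with root mean square differences of 0.0590, 0.0692 and 0.0694 between log2 values centred per gene. Cited2, a transcriptional coregulator gene, lay between 58.9 and 60.5 FPKM in MC38.T4 and between 217.1 and 238.6 FPKM in MC38. Afp had a mean of 1.03 FPKM in MC38.T4 and 6.24 FPKM in MC38, and AI662270 of 0.457 FPKM in MC38.T4 and 4.64 FPKM in MC38. By the ratio of means these 2 low genes fell 6.07-fold and 10.2-fold, against 3.88-fold for Nfkbib. Their likeness holds on the log2(FPKM + 1) scale only.

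Nfkbia fell less. It stood at 25.2, 23.4, 26.6, 26.2 and 25.4 FPKM in MC38.T4 replicates 1 to 5, against 37.6, 43.4, 40.5, 37.5 and 41.6 FPKM in MC38 replicates 1 to 5. The lines did not overlap, and the log2 difference was -0.64 (SE 0.046, limma adjusted p = 3.45e-09). Nfkbie, the lowest of the inhibitor genes, rose to 5.84, 5.79, 5.89, 5.74 and 5.90 FPKM in MC38.T4 replicates 1 to 5, against 3.65, 4.01, 4.23, 4.14 and 3.73 FPKM in MC38 replicates 1 to 5. The MC38.T4 libraries were within 2.63% of their mean from lowest to highest. Its log2 difference was 0.46 (SE 0.043, limma adjusted p = 6.87e-08).

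Nfkbia was the main inhibitor transcript in MC38.T4 and Nfkbib in MC38. Nfkbib made up 31.8% ± 1.3 of the summed FPKM of the 3 genes in MC38.T4 and 56.2% ± 1.7 in MC38 (SD, n = 5 each), while Nfkbia made up 55.4% ± 1.3 in MC38.T4 and 39.9% ± 1.8 in MC38. Nfkbie made up 12.8% in MC38.T4 and 3.93% in MC38. The 3 genes summed to 45.7 ± 1.5 FPKM in MC38.T4 and 100.6 ± 5.2 FPKM in MC38. Per summed FPKM of the 4 subunit genes, this was 0.281 ± 0.013 in MC38.T4 and 0.454 ± 0.026 in MC38, with the libraries between 0.267 and 0.301 in MC38.T4 and between 0.413 and 0.483 in MC38.

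**Figure D2:**
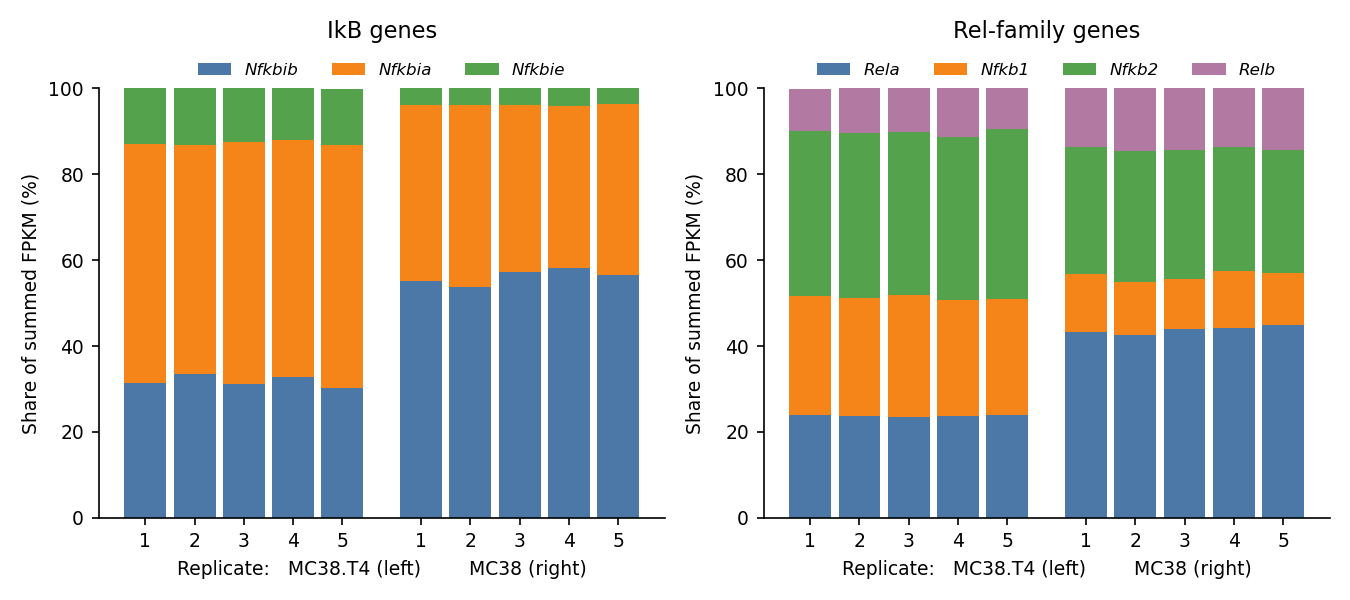
Share of each gene in the summed FPKM of the 3 IkB genes (left) and of the 4 Rel-family genes (right), one bar per library, with MC38.T4 left of MC38. Nfkbib takes 30.3% to 33.5% of the IkB sum in MC38.T4 and 53.8% to 58.2% in MC38, and Rela takes 23.5% to 24% of the Rel-family sum in MC38.T4 and 42.5% to 44.8% in MC38.

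Tnfaip3 encodes a ubiquitin-editing enzyme that ends signalling to the IkB kinases. It stood at 1.35, 1.70, 1.34, 1.59 and 1.78 FPKM in MC38.T4 replicates 1 to 5, against 5.46, 5.28, 5.41, 5.42 and 5.34 FPKM in MC38 replicates 1 to 5. The MC38 libraries were nearly alike (coefficient of variation 1.37%), and the MC38.T4 libraries varied more (13%). The log2 difference was -1.33 (SE 0.054, limma adjusted p = 3.85e-12), and -1.74 with a pseudocount of 0.1.

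Chuk and Ikbkb encode the catalytic kinases IKK alpha and IKK beta, which drive the slower and the canonical route. Chuk was at 24.9, 26.2, 28.5, 26.9 and 24.9 FPKM in MC38.T4 replicates 1 to 5, against 41.0, 32.9, 37.4, 36.9 and 34.9 FPKM in MC38 replicates 1 to 5. It was lower in each MC38.T4 library, with the widest spread of the 10 genes in MC38 (coefficient of variation 8.18%), and its log2 difference was -0.46 (SE 0.054, limma adjusted p = 1.03e-06). Ikbkb was at 12.3, 11.5, 12.0, 12.5 and 11.7 FPKM in MC38.T4 replicates 1 to 5, against 14.4, 13.8, 14.0, 13.6 and 15.1 FPKM in MC38 replicates 1 to 5. The lines lay close but did not overlap, and its log2 difference of -0.22 (SE 0.038, limma adjusted p = 5.33e-05) was the smallest of the called ones. Ikbkg, which encodes the regulatory scaffold of the kinase complex, lay between 17.2 and 19.1 FPKM in MC38.T4 and between 19.2 and 21.3 FPKM in MC38 (log2 difference -0.13, limma adjusted p = 0.00547). Chuk per Ikbkb was 2.19 ± 0.14 in MC38.T4 and 2.58 ± 0.23 in MC38 (SD, n = 5 each), and these ranges overlapped. For each of the 9 called genes the exact two-sided permutation test over the 10 libraries gave p = 0.00794, the smallest it can give with 5 libraries a line.

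The order of the 10 genes by level, which FPKM allows because they are per length, differed between the lines. In MC38.T4 it ran Nfkb2 (62.8 FPKM), Nfkb1, Rela, Chuk, Nfkbia, Relb, Nfkbib, Ikbkb, Nfkbie and Tnfaip3 (1.55 FPKM). In MC38 it ran Rela (97.1 FPKM), Nfkb2, Nfkbib, Nfkbia, Chuk, Relb, Nfkb1, Ikbkb, Tnfaip3 and Nfkbie (3.95 FPKM). Of the 9 pairs of neighbours in each order, 1 overlapped between libraries, and it was Chuk and Nfkbia in both lines. Nfkbib stood below Relb in MC38.T4 and above Nfkbia in MC38.

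Of 8 genes for other NF-kB family proteins 3 rose and 5 fell, none of them 2-fold on the log2(FPKM + 1) scale, with a median log2 difference of -0.16 (0.00 for all tested genes). All 8 were thus called, where 86.0% of all tested genes were called, 43.1% higher and 42.9% lower. Nfkbiz, whose nuclear product is a cofactor for a subset of NF-kB targets, rose to 2.95 ± 0.40 FPKM in MC38.T4, against 1.11 ± 0.10 FPKM in MC38 (SD, n = 5 each, log2 difference 0.90, limma adjusted p = 3.34e-09). Bcl3, whose nuclear product binds dimers without an activation domain, rose to 3.07 ± 0.27 FPKM in MC38.T4, against 1.61 ± 0.18 FPKM in MC38 (log2 difference 0.64). Nfkbid, another nuclear IkB-like gene, fell to 1.92 FPKM in MC38.T4, against 2.38 FPKM in MC38 (limma adjusted p = 0.00385), with overlapping ranges. Rel, which encodes c-Rel, was low in both lines, at 1.65 ± 0.06 FPKM in MC38.T4 and 1.42 ± 0.15 FPKM in MC38. Its call as higher (limma adjusted p = 0.0235) was lost when MC38 replicate 2 (0.0607), MC38 replicate 5 (0.0647) or MC38.T4 replicate 2 (0.0576) was left out. It was also lost after rescaling to TPM (adjusted p = 0.108), quantile normalization (0.546) or a shift to equal medians (0.0569). Nkap, a regulator of NF-kB activation, fell to 5.69 FPKM in MC38.T4, against 8.92 FPKM in MC38, and Nfkbil1 to 12.5 FPKM in MC38.T4, against 15.1 FPKM in MC38.

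**Figure D3:**
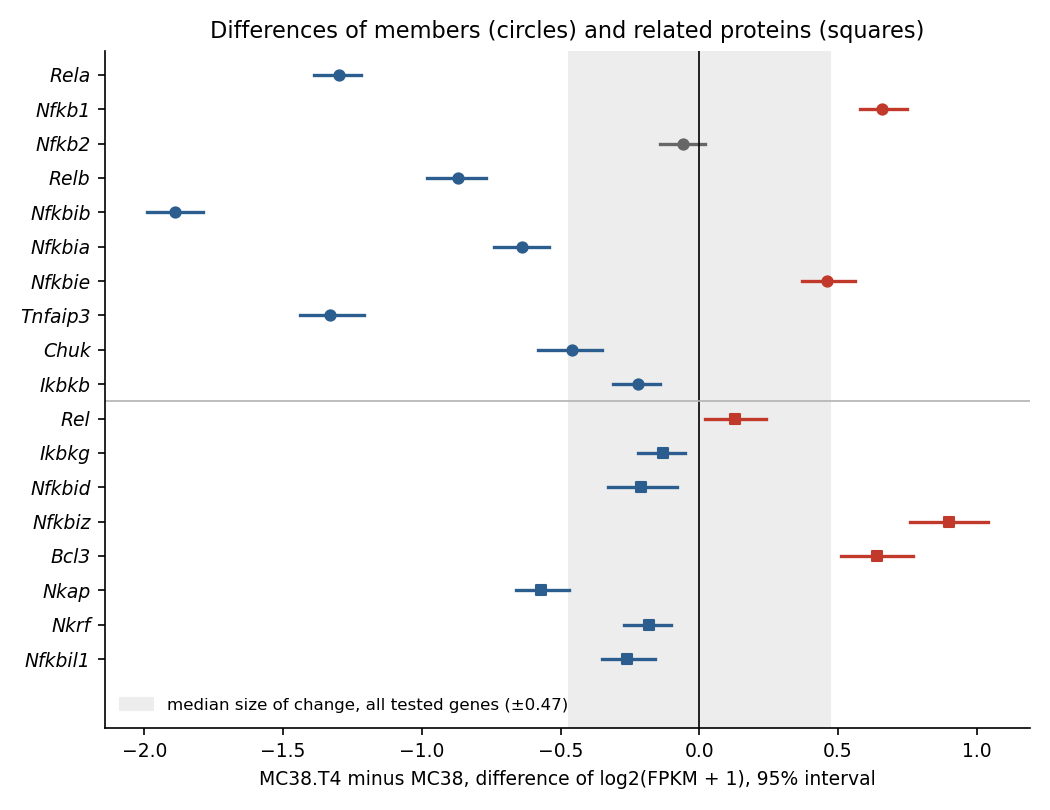
Difference of log2(FPKM + 1), MC38.T4 minus MC38, with its 95% interval from limma, for the 10 NF-kB genes (circles) and 8 related proteins (squares), red where higher, blue where lower and grey where the test was not passed. The grey band marks the median size of the difference over all tested genes, 0.47, and Nfkbib, Tnfaip3, Rela and Relb lie furthest below it.

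Of the receptors that feed the pathway, 9 of 22 were tested, and 6 rose and 3 fell, where 43.1% of all tested genes rose and 42.9% fell. Il1r1, among the 6, lay between 0.148 and 0.303 FPKM in MC38. It passed the filter through MC38.T4 alone and so could enter the test only as a rise. Il1rap, the shared co-receptor of the IL-1 family, rose to 26.3 ± 0.50 FPKM in MC38.T4, against 6.41 ± 0.37 FPKM in MC38 (SD, n = 5 each, log2 difference 1.89, limma adjusted p = 2.76e-15). Tnfrsf1b, the second TNF receptor gene, rose to 22.1 FPKM in MC38.T4, against 7.72 FPKM in MC38, and the double-stranded RNA sensor gene Tlr3 to 3.46 FPKM in MC38.T4, against 2.50 FPKM in MC38. Tnfrsf12a, which encodes the receptor of TWEAK and signals through the slower route, fell to 128.6 ± 5.5 FPKM in MC38.T4, against 347.3 ± 26 FPKM in MC38 (log2 difference -1.42, limma adjusted p = 8.3e-13). Tlr4, the sensor of endotoxin, fell to 7.08 FPKM in MC38.T4, against 11.5 FPKM in MC38, and the lymphotoxin beta receptor gene Ltbr to 33.3 FPKM in MC38.T4, against 42.7 FPKM in MC38.

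Of 12 ligand genes 9 lay below the filter, and the 3 that were tested rose, where 43.1% of all tested genes rose. Il33 and Il18 stayed below 1 FPKM in each MC38 library (Il18 between 0.439 and 0.672 FPKM). They passed the filter through MC38.T4 alone and so could enter the test only as rises. Il33, an IL-1 family alarmin, stood at 9.44 ± 0.55 FPKM in MC38.T4 and 0.0796 ± 0.028 FPKM in MC38 (SD, n = 5 each, log2 difference 3.27, limma adjusted p = 8.28e-17). Tnfsf12, which encodes TWEAK, the ligand of the Tnfrsf12a product, stood at 9.66 ± 0.76 FPKM in MC38.T4 and 3.55 ± 0.21 FPKM in MC38 (log2 difference 1.22). This ligand gene and its receptor gene therefore went opposite ways.

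Of 24 tested genes for adaptors and upstream kinases 7 rose, 14 fell and 3 did not pass (median log2 difference -0.19). Of all tested genes 43.1% rose, 42.9% fell and 86.0% were called either way, and 21 of these 24 were called. Card10 and Ikbke stayed below 1 FPKM in each MC38 library. They passed the filter through MC38.T4 alone and so could enter the test only as rises. Tab2, an adaptor that links ubiquitin chains to the kinase TAK1, fell to 42.4 ± 1.7 FPKM in MC38.T4, against 110.5 ± 3.9 FPKM in MC38 (SD, n = 5 each). Traf6, the ubiquitin ligase of IL-1 and Toll-like receptor signalling, fell to 5.75 ± 0.17 FPKM in MC38.T4, against 16.3 ± 1.1 FPKM in MC38. Ripk1, the kinase of the TNF receptor complex, fell to 14.4 FPKM in MC38.T4, against 25.7 FPKM in MC38. Card10, a scaffold that recruits the Bcl10 and Malt1 products, rose to 3.55 ± 0.28 FPKM in MC38.T4, against 0.131 ± 0.046 FPKM in MC38, and Traf5 rose to 7.73 FPKM in MC38.T4, against 2.62 FPKM in MC38. Irak2, an IL-1 receptor-associated kinase gene, rose to 3.77 FPKM in MC38.T4, against 1.77 FPKM in MC38.

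Of 23 tested genes for ubiquitin ligases, deubiquitinases and their helpers 12 rose, 9 fell and 2 did not pass (median log2 difference 0.10), so that 21 of 23 were called, against 86.0% of all tested genes. Rbx1, the RING subunit of the ligase family that marks IkB, rose to 100.7 ± 5.2 FPKM in MC38.T4, against 48.5 ± 4.7 FPKM in MC38 (SD, n = 5 each). Cyld, a deubiquitinase that restrains the pathway, rose to 23.9 FPKM in MC38.T4, against 13.6 FPKM in MC38, and Usp18 to 8.31 FPKM in MC38.T4, against 4.10 FPKM in MC38. Fbxw11, one of the pair of F-box proteins that recognise phosphorylated IkB, fell to 39.9 ± 1.1 FPKM in MC38.T4, against 66.0 ± 4.1 FPKM in MC38. Btrc, which encodes the other protein of that pair and was named after its values were seen, rose to 16.6 ± 0.44 FPKM in MC38.T4, against 12.9 ± 0.79 FPKM in MC38 (SD, n = 5 each, log2 difference 0.34, limma adjusted p = 2.13e-06). Rnf11, whose product acts in a complex with that of Tnfaip3, fell to 63.9 FPKM in MC38.T4, against 150.5 FPKM in MC38, and Traf3ip2 to 4.47 FPKM in MC38.T4, against 7.79 FPKM in MC38.

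Of 46 genes listed here as NF-kB targets 17 lay below the filter, and of the 29 tested 22 rose and 7 fell, 12 and 2 of them at least 2-fold (median log2 difference 0.61, 0.00 for all tested genes). The 10 genes described above were left out of this list, also those that NF-kB is known to induce, such as Nfkbia and Tnfaip3. Both of these fell, and of the other genes left out Nfkb1 and Nfkbie rose and Nfkb2 did not pass. Of all tested genes 43.1% rose, 10.0% at least 2-fold, and 42.9% fell, 7.14% at least 2-fold. Ccl5, Ccl7, Cx3cl1, Mmp3 and C3 stayed below 1 FPKM in each MC38 library. They passed the filter through MC38.T4 alone and so could enter the test only as rises. Mmp9 reached 1 FPKM in MC38 replicate 1 and in no other MC38 library. The counts and the median of this list include these genes. Genes of this list respond to other factors as well, and which of them respond to NF-kB in these lines was not tested. The largest rises on the log2(FPKM + 1) scale were those of the chemokine genes Ccl2 (184.6 ± 19 FPKM in MC38.T4, 5.21 ± 0.61 FPKM in MC38) and Ccl7 (16.8 ± 0.87 FPKM in MC38.T4, 0.408 ± 0.11 FPKM in MC38) and of the gelatinase gene Mmp9 (32.0 ± 1.0 FPKM in MC38.T4, 0.959 ± 0.055 FPKM in MC38). By the ratio of means C3 (39.9-fold) and Mmp3 (36.7-fold) rose more than Ccl2 (35.4-fold) and Mmp9 (33.4-fold). The largest falls were those of Traf1, a signalling adaptor (11.9 ± 1.1 FPKM in MC38.T4, 31.4 ± 0.85 FPKM in MC38), Ptgs2, cyclooxygenase 2 (26.0 ± 4.1 FPKM in MC38.T4, 60.7 ± 3.2 FPKM in MC38), and Gadd45b, a stress-response gene (4.22 ± 0.23 FPKM in MC38.T4, 8.67 ± 0.46 FPKM in MC38). Over all 6 lists of other pathway genes 96 of 139 were tested, of which 53 rose, 38 fell and 5 did not pass. The rises include those of genes that passed the filter through MC38.T4 alone.

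**Figure D4:**
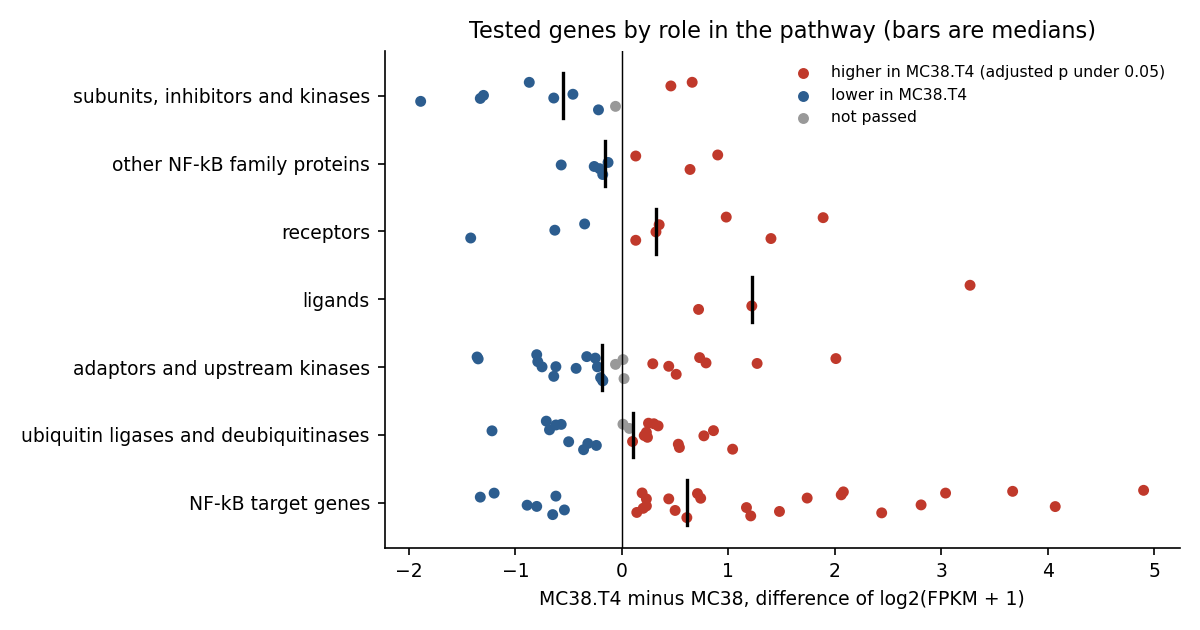
Difference of log2(FPKM + 1), MC38.T4 minus MC38, of each tested gene by role in the pathway, red where higher, blue where lower and grey where the test was not passed, with black bars for the medians. The median lies at -0.55 for the 10 subunit, inhibitor and kinase genes and at 0.61 for the 29 tested genes listed as targets. The 10 genes were left out of the other lists, also where NF-kB is known to induce them. Genes that passed the filter through MC38.T4 alone, such as Ccl5, Ccl7, Cx3cl1, Mmp3 and C3 among the targets, could appear only as rises.

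The tested genes beside each of the 10 genes were then examined in RefSeq gene order, with the width of 20 genes on either side chosen after seeing the data. The 20 tested genes on either side of Rela on chromosome 19 held 28 rises and 7 falls (median log2 difference 0.37), and the nearest 4, Rnaseh2c, Kat5, Sipa1 and Pcnx3, all rose. Rnaseh2c, a subunit gene of ribonuclease H2, stood at 27.4 ± 2.3 FPKM in MC38.T4 and 8.08 ± 0.40 FPKM in MC38 (SD, n = 5 each). The 40 genes around Nfkbib on chromosome 7 held 12 rises and 25 falls (median -0.39), but the nearest 4, Mrps12, Sars2, Sirt2 and Hnrnpl, rose by log2 differences of 0.35 to 0.78. Rela and Nfkbib thus went against their nearest neighbours. Kat5, Sipa1, Pcnx3 and the neighbours of Nfkbib were named after their values were seen.

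Tnfaip3 went with its neighbours. Of the 40 tested genes around it on chromosome 10 32 fell and 7 rose (median log2 difference -0.60). Its neighbour Hebp2 was listed at 0 in each MC38.T4 library and stood at 3.85 ± 0.39 FPKM in MC38 (SD, n = 5). Over chromosome 10 as a whole 357 of 532 tested genes fell (67.1%, median -0.43), and the 6 genes of the pathway that lie there, Tnfaip3, Tab2, Tbk1, Ube2n, Traf3ip2 and Gadd45b, all fell. The part of the chromosome in their falls was not tested. Nfkbia on chromosome 12 also lay among falls, with 31 falls and 7 rises among 40 genes (median -0.45). The other surroundings held 10 rises and 25 falls around Relb on chromosome 7, 23 rises and 13 falls around Nfkb1 on chromosome 3, 22 rises and 14 falls around Nfkb2 and 21 rises and 17 falls around Chuk on chromosome 19, 17 of each around Nfkbie on chromosome 17, and 15 rises and 16 falls around Ikbkb on chromosome 8. Single neighbours with differences of at least 2-fold on the log2(FPKM + 1) scale were taken from the 2 nearest tested genes on either side. Genes further out differed as much or more in places and are not listed. The near ones were Slc39a8 beside Nfkb1 (0.111 FPKM in MC38.T4, 2.05 FPKM in MC38), Apoe beside Relb (1.72 FPKM in MC38.T4, 6.01 FPKM in MC38) and Hsp90ab1 beside Nfkbie (1779.6 FPKM in MC38.T4, 766.3 FPKM in MC38). Beside Chuk they were Dnmbp (9.74 FPKM in MC38.T4, 4.31 FPKM in MC38) and Erlin1 (57.7 FPKM in MC38.T4, 125.2 FPKM in MC38), and beside Ikbkb the plasminogen activator gene Plat (16.3 FPKM in MC38.T4, 1.89 FPKM in MC38).

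**Figure D5:**
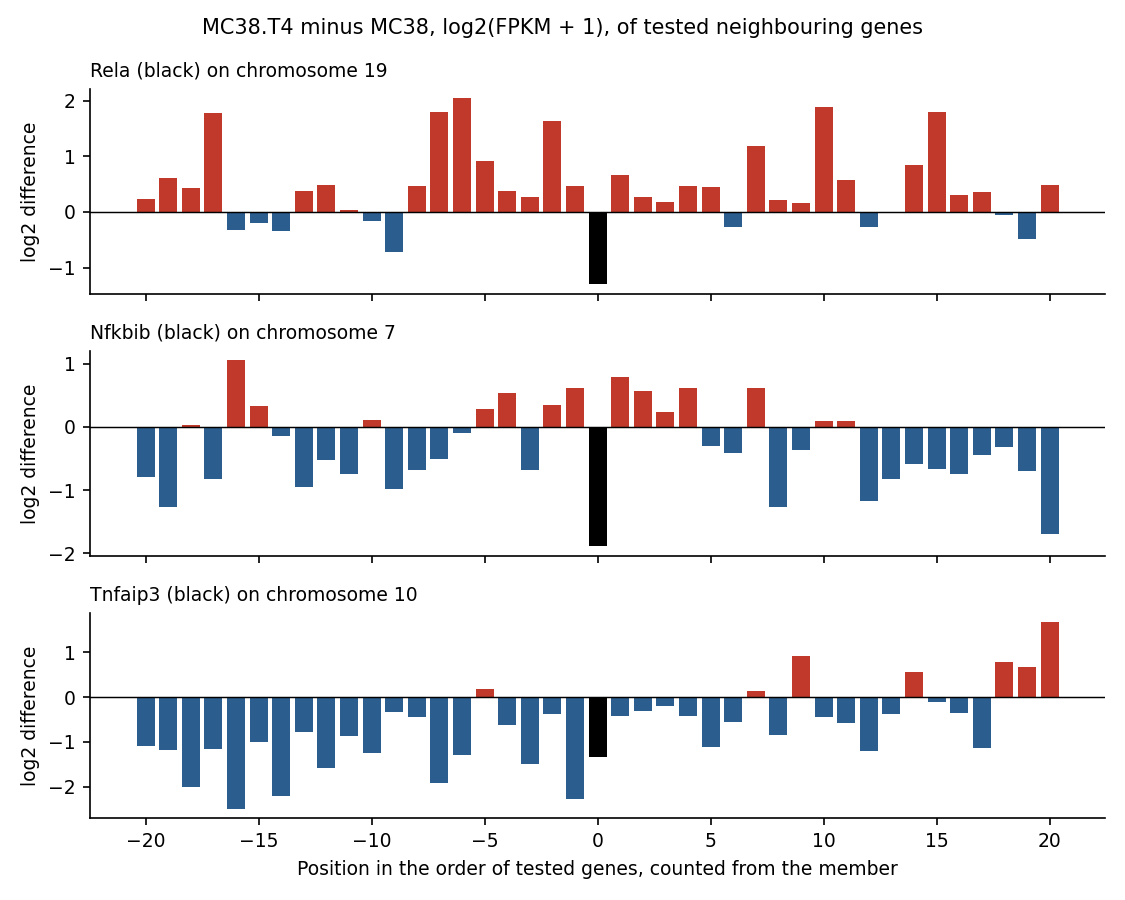
Difference of log2(FPKM + 1), MC38.T4 minus MC38, of the 20 tested genes on either side of Rela, Nfkbib and Tnfaip3 (black bars), in gene order. Rela stands among genes that are mostly higher in MC38.T4, the nearest neighbours of Nfkbib are higher, and the genes around Tnfaip3 are mostly lower.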

How the data were processed

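The authors deposited 1 table of FPKM (fragments per length of transcript and per mapped fragment), a row for each gene symbol and a column for each library. Per the labels' protocols the libraries were polyA-selected and strand-specific (TruSeq). The submitters' processing notes name GRCm39 and DESeq2 without a version or role, and for the aligner, counting program and annotation no source used here gives a name. FPKM depend on the library total, so a few abundant genes can shift all others.

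Columns were matched to samples by library name. Genes that reached 1 FPKM in 5 or more of 10 libraries (as many as the smaller line has, where libraries were left out) were fitted on log2(FPKM + 1) with limma 3.58.1 in R 4.3.3 (trend and robust moderation, two-sided, Benjamini-Hochberg adjustment). No count test was used, since the values are not counts. The code was tested on simulated data. Tables and exact permutation tests used Python 3.11.15, pandas 2.3.3, NumPy 2.4.6 and SciPy 1.17.1, and figures matplotlib 3.10.9. Promoter sequences and gene order came from RefSeq tables of GRCm38.p6, and strands of overlapping genes from the GENCODE annotation of GRCm38.

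The 10 genes and the gene lists were chosen with earlier results of these data known. Named genes are the 10, Rel, Ikbkg, Nfkbid, Nfkbiz and Bcl3, up to 3 rises and 3 falls per list with the largest difference and a mean FPKM of at least 2 in a line, neighbours with 2-fold differences and the 3 genes most like Nfkbib. These neighbours were taken from the 2 nearest tested genes on either side of each of the 10. The alternatives comprised other scalings (TPM, quantile, equal medians), a pseudocount of 0.1, a minimum of 5 FPKM or none, leaving out each library, a block for the replicate number, array weights, eBayes without trend or robust moderation, limma's treat, exact rank-sum tests and, added after seeing the data, both libraries that stand apart left out.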

Additional observations from a re-analysis of the deposited data

Results flagged for a closer look

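A library that stood apart from the other 4 of its line, by the gap to its nearest neighbour as a share of the range, was found for 10 of 108 combinations of a named gene and a line (9.26%), where chance gives about 1 in 20. All 10 were MC38.T4 replicate 4 or MC38 replicate 1. MC38.T4 replicate 4 was highest for Relb (19.3 FPKM), Usp18 (10.4 FPKM), Traf1 (13.8 FPKM) and Ptgs2 (33 FPKM). MC38 replicate 1 was lowest for Bcl3 (1.30 FPKM), Traf5 (2.20 FPKM) and Traf1 (29.9 FPKM) and highest for Tlr3 (2.80 FPKM), Tab2 (117.2 FPKM) and Fbxw11 (73.1 FPKM).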

How the results depend on the processing

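The 10 NF-kB genes kept their direction in all 22 alternatives. Against a fold of 1.5 (limma's treat) the calls of Nfkb1 (log2 difference 0.66, adjusted p = 0.106), Nfkbia (-0.64, adjusted p = 0.334), Nfkbie (0.46), Chuk (-0.46) and Ikbkb (-0.22, adjusted p = 1.00 for these last 3) were lost, which leaves 0 rises and 4 falls. The same test called 3474 of all 11110 tested genes in either direction. It left 27 rises and 12 falls among the other pathway genes. These were 1 rise and 0 falls of related proteins, 3 rises and 1 fall of receptors, 2 rises and 0 falls of ligands, 4 rises and 5 falls of adaptors, 3 rises and 2 falls of ubiquitin enzymes, and 14 rises and 4 falls of targets. The rises include those of genes that passed the filter through MC38.T4 alone. Nfkb2 was called lower after rescaling to TPM (-0.11) and with equal medians (-0.09). A minimum of 5 FPKM, which tests fewer genes, left 0 rises and 3 falls of related proteins, 3 rises of receptors and 4 rises of adaptors, and no filter gave 6 falls of receptors. Over all genes 7683 of 8806 were called at the minimum of 5 FPKM and 12725 of 26597 without a filter. The receptors added without a filter stayed below 1 FPKM in every library, and their rises are not listed here. Leaving out each library kept 2 rises, 7 falls and 3 changes of at least 2-fold among the 10 genes. Over all genes these settings called from 9448 of 11167 (without MC38.T4 replicate 5) to 9682 of 11188 (without MC38 replicate 1). No scaling moved the median of all genes by more than 0.048.

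Same-numbered libraries did not deviate together (correlations between -0.129 and 0.142), so they share only a number. With the replicate block 2 rises and 7 falls were called as before, with adjusted p = 0.17 for Nfkb2 and at most 0.000341 for the others. The block setting called 9534 of all 11110 tested genes. FPKM without read totals limit what can be said of Tnfaip3, Rel and other genes near the filter.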
